A study of Mus musculus with 9 samples.

Results

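The insulin-like growth factor (IGF) axis is described here by 9 genes, among 32285 genes measured, in brain tumors and control brains of mice. The genes were taken by symbol: Igf2 and Igf1, the secreted ligands; H19, the noncoding RNA next to Igf2; Dlk1, a membrane protein of the Delta-like family; Igf1r and Igf2r, the receptors; and Igf2bp1, Igf2bp2 and Igf2bp3, RNA-binding proteins named for binding Igf2 mRNA. They were chosen with results of these samples known, so their levels in tumor and control are given as a description, without a test.

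IGF1 and IGF2 signal through the receptor tyrosine kinase IGF1R, which acts on insulin receptor substrates, PI3-kinase and AKT. IGF2R carries no kinase and takes IGF2 to the lysosome, and secreted binding proteins hold the ligands outside the cell. Igf2 and H19 lie in 1 imprinted cluster, where Igf2 is read from the paternal and H19 from the maternal chromosome, and Dlk1 lies in another with the noncoding RNA Meg3. Igf2, H19, Dlk1, Igf2bp1 and Igf2bp3 are known for high activity before birth and low activity in most adult tissues, while the choroid plexus and the meninges keep Igf2 in the adult brain.

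Single-cell RNA was counted in 5 EP ZFTA-RELA tumors, a mouse model of supratentorial ependymoma (genotype NestinCreERT2;Fus1), and in 4 control brains (NestinCreERT2;TdT) at 6 to 8 weeks of age, 1 library a mouse. In the tumor line a conditional ZFTA-RELA fusion with a luciferase reporter was recombined by Cre under the Nestin promoter in embryonic neural progenitors, so that cells outside that lineage in a tumor carry the unrecombined allele. Both groups carry the Cre, and the controls carry a red fluorescent reporter in place of the fusion. Nothing in the labels says whether littermates were used, so the p-values below measure the spread between these mice.

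Counts are unique molecular identifiers (UMIs) at the 5′ end of transcripts, and levels are CPM, the counts of a gene scaled to a common total of UMIs, over the cells that passed the filters, 4023 to 6365 cells a control and 1721 to 5121 a tumor. Median depth was 2032 to 4115 UMIs a cell in controls and 2068 to 6512 in tumors. The libraries differed in more than genotype: the controls held 75222 to 86516 deposited barcodes and the tumors 9001 to 26341, although at most 10000 cells were loaded, so most barcodes of the controls are not cells. The 3000 barcodes with the fewest UMIs in each library gave the level of each gene in free RNA, which is set beside the cell levels. They held a median of 691 to 1338 UMIs in the controls and 559 to 649 in the tumors. No deposited barcode held fewer than 468 UMIs, so cells may be among them. Between 19 and 45 barcodes were shared by each of 28 pairs of libraries (control replicate 4 was left out, since its name list is shorter than its matrix). The fusion had no UMI in the controls and 6, 235, 6, 699 and 314 UMIs in tumor replicates 1 to 5, and the control reporter had 291 to 932 UMIs in the controls and 0 in the tumors, as the labels have it.

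Cells were put into classes by marker genes, and a class is a range of a score, not a type with sharp edges. Neuron markers were no higher in the kept cells of controls (4169 to 4652 CPM summed over 9 genes) than in their free RNA (4912 to 5448 CPM). Cells with UMIs of at least 3 of them and no other class past its score are therefore called cells with neuron markers only, 3434 to 5607 a control. They may hold other markers below that score. In the tumors 2.19% to 58.5% of them carried 1 UMI of the fusion or luciferase. Cells with at least 2 such UMIs were moved out of this and other classes and are called fusion-allele cells. They numbered 8, 319, 23, 2475 and 284 in tumor replicates 1 to 5. Cells between classes and those of the immune, vessel, fibroblast, erythroid, oligodendrocyte, ependymal and choroid plexus classes were left out whatever their UMIs. In replicate 4, 31.5% of oligodendrocyte-like cells and 76.6% of cells between classes carried at least 1 such UMI. Tumor replicate 1 stood apart, with 6700 CPM of choroid plexus markers (controls 1180 to 4278), against 5.51 to 12.03 CPM in the other tumors. Replicates 1 and 3 had the fewest fusion-allele cells. In bulk sums, fewer cells of a type and less RNA per cell cannot be told apart.

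Where the genes lie is given on the mouse build GRCm38. Igf2 spans chr7:142650766-142666816 and H19 chr7:142575529-142578143, both on the minus strand and 72622 bases apart. Dlk1 spans chr12:109452823-109463336 on the plus strand, 77664 bases before Meg3. Igf1 lies at chr10:87858265-87937042, Igf1r at chr7:67952827-68233668, Igf2r at chr17:12682406-12769664, Igf2bp1 at chr11:95957163-96005940, Igf2bp2 at chr16:22059009-22163299 and Igf2bp3 at chr6:49085223-49214957. Igf2, Igf1, Igf2r, Igf2bp1 and Igf2bp3 each overlap a counted gene on the other strand (Igf2os, Igf1os, Airn, Gm29202 and Malsu1), and whether the counting used strand is not given in the sources used here.

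Igf2 and H19 also host microRNAs, short RNAs that pair with target mRNAs through the seed, bases 2 to 8. They are shown because their hosts differed so widely between tumor and control, but the assay counts polyadenylated RNA and did not measure them. miR-675 lies within H19 and miR-483 within Igf2, all on the minus strand of chromosome 7, in RefSeq at chr7:142577112-142577133 (miR-675-5p), chr7:142577078-142577099 (miR-675-3p), chr7:142654968-142654989 (miR-483-5p) and chr7:142654932-142654952 (miR-483-3p). The seed is in capitals, and the 4 seeds differ from each other.
mmu-miR-675-5p: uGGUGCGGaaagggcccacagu
mmu-miR-675-3p: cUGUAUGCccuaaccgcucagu
mmu-miR-483-5p: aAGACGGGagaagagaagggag
mmu-miR-483-3p: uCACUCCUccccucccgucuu

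Promoters of Igf2 and Dlk1 are printed because neither gene rose above the free RNA in the sum of kept control cells and both lay above it in fusion-allele cells. Each is the 250 bases before a RefSeq start on GRCm38, and 7 of the 9 genes had an entry (H19 and Igf2bp1 had none). Igf2 has several starts, and the one shown is that whose window held the most matches to the motifs searched. Searched on both strands were the TATA box (TATAAA), the element bound by Sp1 (GGGCGG), the element bound by NF-Y (CCAAT) and the NF-kB consensus, which the RELA family binds. Of 32851 promoters of this length, 12.4% held the TATA box, 32.7% the Sp1 element, 33.8% the NF-Y element and 7.25% the NF-kB consensus. In the Igf2 window, at chr7:142657497-142657746 on the minus strand, the Sp1 element stood at -100 to -95 and at -85 to -80 and the NF-Y element at -231 to -227 on the other strand (capitals), and 66% of bases were G or C. The Dlk1 window, at chr12:109452573-109452822 on the plus strand, held none of the 4 motifs, with 54.8% G or C, where the median promoter has 52.4%.
Igf2: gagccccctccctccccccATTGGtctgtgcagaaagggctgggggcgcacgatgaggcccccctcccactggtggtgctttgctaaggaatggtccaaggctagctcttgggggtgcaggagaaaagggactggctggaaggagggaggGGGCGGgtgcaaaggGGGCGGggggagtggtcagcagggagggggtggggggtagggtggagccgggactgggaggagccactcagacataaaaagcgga
Dlk1: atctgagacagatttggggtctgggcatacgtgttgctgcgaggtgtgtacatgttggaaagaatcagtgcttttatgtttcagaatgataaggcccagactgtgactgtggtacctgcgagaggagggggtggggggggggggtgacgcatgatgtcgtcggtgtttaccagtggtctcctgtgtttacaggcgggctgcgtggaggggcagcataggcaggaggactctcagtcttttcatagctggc

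Igf2, H19 and Dlk1 were higher in every tumor than in every control, Igf1r was higher by a smaller factor, Igf2bp3 was lower in the kept cells, Igf2bp2 was lower in 4 of 5 tumors, and Igf1, Igf2r and Igf2bp1 overlapped between the groups. Over all genes tested, 61.6% passed the threshold between tumor and control (32.3% higher and 29.4% lower, edgeR), so a difference between these groups is common, and nothing is read from the members' count.

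**Figure D1:**
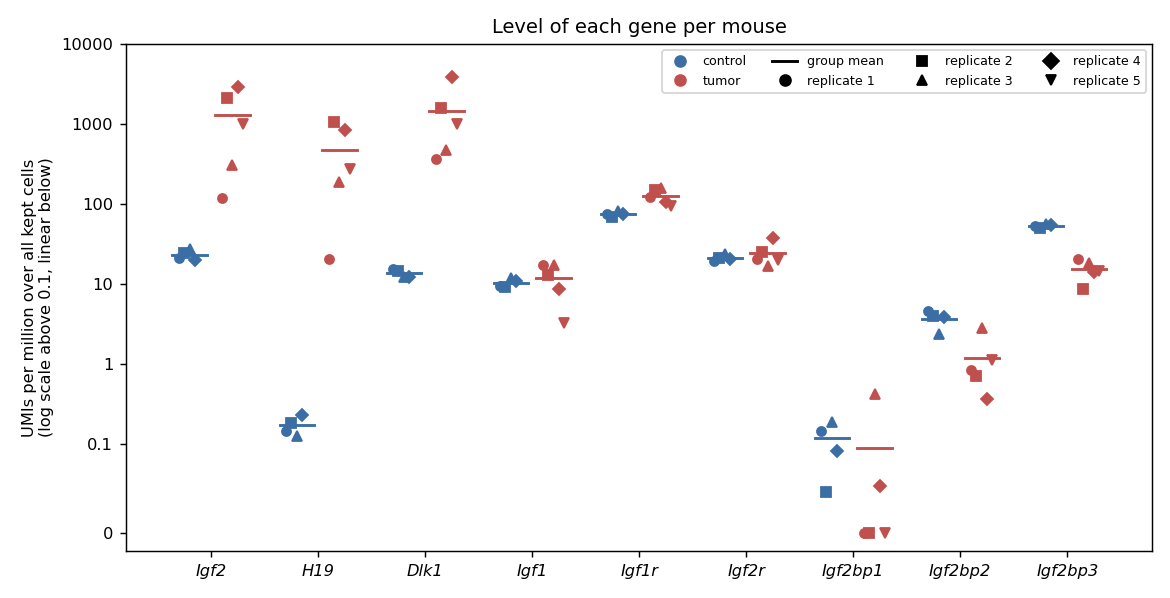
Levels of the 9 genes in CPM over all kept cells (vertical axis, log scale above 0.1 and linear below), 1 point a mouse with the marker shape giving the replicate, controls in blue, tumors in red and a line at the group mean. Igf2, H19, Dlk1 and Igf1r do not overlap between the groups and lie higher in tumors, and Igf2bp3 does not overlap and lies lower.

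Igf2, the fetal growth ligand, stood at 20.9, 24.5, 27.3 and 20.3 CPM in control replicates 1 to 4. In tumor replicates 1 to 5 it stood at 120 (119.9), 2123, 304, 2921 and 997 CPM. The means were 23.3 ± 3.29 (SD, n = 4) and 1293 ± 1202 (SD, n = 5), a ratio of 55.6 (5.797 on the log2 scale, and 4.87 over all deposited barcodes). The tumors spread over a factor of 24.3, from the lowest in replicate 1, which still lay above every control, to the highest in replicate 4. Control cells carried less Igf2 than the free RNA of their libraries, which held 40.9 to 47.4 CPM.

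H19 was close to absent from control brain. Its UMIs numbered 2, 4, 2 and 5 over all kept cells of the controls and 122, 17833, 1325, 31984 and 4408 in tumor replicates 1 to 5. The tumor levels were 20.7, 1056, 188, 849 and 274 CPM, and the control levels 0.126 to 0.230 CPM. The tumors kept nearly the order they had for Igf2, except that replicate 2 lay above replicate 4.

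Dlk1, which restrains differentiation in several progenitor cells, stood at 15.5, 14.7, 12.2 and 12.3 CPM in the controls. The tumors held 366, 1597, 476, 3865 and 1005 CPM, a ratio of means of 107 (6.74 on the log2 scale, 5.98 without tumor replicate 4 and 6.03 over all deposited barcodes). Replicate 1 was again the lowest tumor and replicate 4 the highest, and the group ranges were far apart. Control free RNA held 18.9 to 26.5 CPM, so the kept cells of controls did not rise above it for this gene either.

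Within the tumors these 3 transcripts were high in cells that carried the fusion allele. The order of the classes differed between genes and between tumors. Since the genes were picked from these cells, the class levels are a description. In fusion-allele cells of tumor replicates 2 to 5 Igf2 reached 3669, 2131, 3545 and 1398 CPM, H19 1787, 1184, 1101 and 498 CPM, and Dlk1 2723, 1563, 4816 and 1218 CPM. These levels were 1.84 to 6.57 times the free RNA of the same library for Igf2, 1.47 to 8.55 times for H19 and 2.24 to 4.03 times for Dlk1. Other markers were counted over the fusion-allele cells of all tumors pooled, most of them from replicate 4. Their medians were 13 UMIs a cell of 8 neural progenitor genes, 7 of 7 astrocyte genes and 7 of 7 OPC (oligodendrocyte precursor) genes.

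Cells of no class, 327 to 1068 a tumor, were also high. Igf2 stood at 203, 3209, 1013, 3318 and 1378 CPM in those of replicates 1 to 5 and Dlk1 at 881, 2833, 2535, 4906 and 1513 CPM, so that Dlk1 in replicates 2 to 5 was higher there than in fusion-allele cells. Between 5.45% and 57.6% of the cells of no class carried 1 UMI of the fusion allele, since those with more had been moved to the fusion-allele cells. Microglia-like and endothelial-like cells were not moved. The share with at least 1 such UMI was 0.893% to 24.4% in microglia-like cells and 0% to 22.5% in endothelial-like cells, lower in each tumor than in its cells of no class. Neural progenitor-like cells averaged 1655 ± 1156 CPM of Igf2, 523 ± 442 of H19 and 1846 ± 501 of Dlk1 (SD, n = 5). H19 in the progenitor-like cells was 0.634 to 9.97 times the free RNA. Cells with neuron markers only held 113, 2550, 176, 2393 and 1262 CPM of Igf2 in replicates 1 to 5. In replicate 1, which had too few fusion-allele cells for a level, neural progenitor-like cells held the most of all 3, at 619 (618.5) CPM of Igf2, 171 of H19 and 1273 of Dlk1. OPC-like cells of replicate 2 (1824 CPM) and mural-like cells of replicate 5 (586 CPM) held more H19 than the fusion-allele cells of the same tumor.

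Microglia-like, macrophage-like and oligodendrocyte-like cells lay below the free RNA in every tumor that had enough of them. In microglia-like cells, the resident macrophages of the brain, Igf2 stood at 11.4, 330, 34.6, 903 and 340 CPM, which was 0.106 to 0.468 times the free RNA. H19 stood at 4.27, 276, 15.4, 298 and 89.0 CPM in the same cells and Dlk1 at 58.3, 185, 35.1, 1019 and 314 CPM, 0.111 to 0.399 and 0.0723 to 0.579 times the free RNA. Oligodendrocyte-like cells held 0.0719 to 0.504 times the free RNA for all 3 genes, and endothelial-like cells 0.0716 to 1.06 times. Replicates 2, 4 and 5, whose free RNA held the most of the 3 transcripts, also lay above replicates 1 and 3 in microglia-like cells. Mural-like cells reached 1153 CPM of Igf2 in replicate 5, above the 742 CPM in its free RNA.

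**Figure D2:**
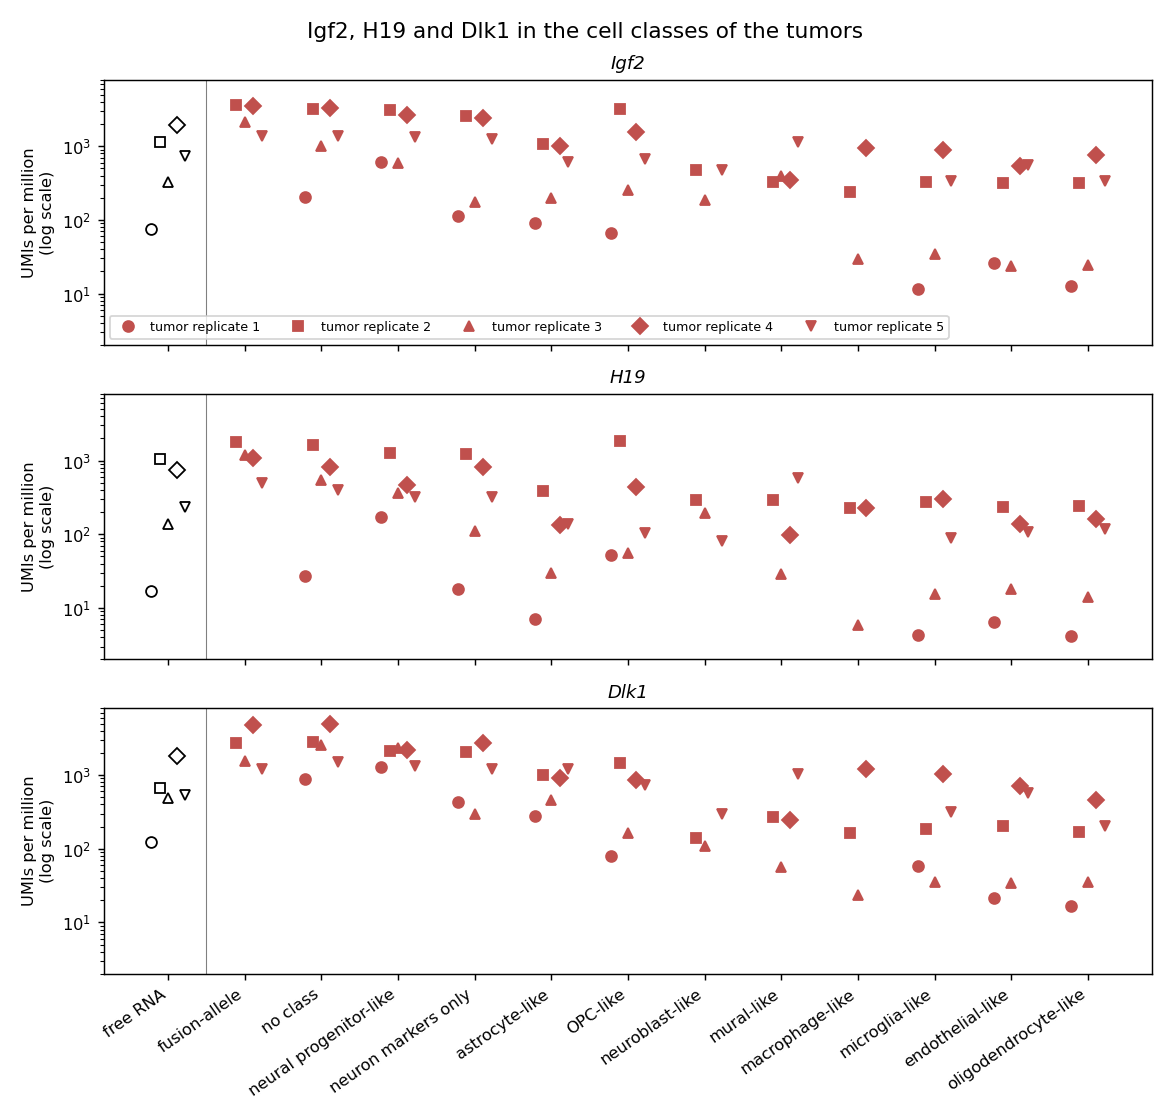
Igf2, H19 and Dlk1 in CPM (log scale) in each cell class with at least 20 cells, 1 point a tumor with the marker shape giving the replicate, beside the free RNA of the same libraries (open points, left). Fusion-allele cells and cells of no class are among the high classes for each gene in replicates 2 to 5, and microglia-like and oligodendrocyte-like cells lie below the free RNA.

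Many fusion-allele cells held all 3 transcripts. With each cell thinned to 2000 UMIs, 75.5%, 43.5%, 54.9% and 32.5% of fusion-allele cells in replicates 2 to 5 had UMIs of Igf2, H19 and Dlk1 together (10 of 23 cells in replicate 3, exact 95% interval 23.2% to 65.5%). The share was 92.2%, 69.6%, 81.5% and 57.7% without thinning. In microglia-like cells of replicates 1 to 5, where the level of each transcript lay below the free RNA, it was 0%, 7.43%, 0.41%, 12.96% and 3.09% after thinning, with 0 of 184 cells in replicate 1 (exact 95% interval up to 1.98%). In cells of no class it was 3.91%, 67.5%, 25.2%, 47.3% and 29.7% after thinning, so the 3 transcripts were not found together in fusion-allele cells alone. Median depth was 5132 to 7644 UMIs in fusion-allele cells and 2357 to 6024 in microglia-like cells, and the intervals cover counting error only.

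The balance of the 3 transcripts differed between tumors. The ratio of Igf2 to H19 UMIs in fusion-allele cells was 2.05, 1.80, 3.22 and 2.81 in replicates 2 to 5. Igf2 exceeded Dlk1 by 1.35, 1.36 and 1.15 in replicates 2, 3 and 5, whereas the ratio was 0.736 in replicate 4, the tumor with most fusion-allele cells. Proliferating fusion-allele cells, taken by 7 cell cycle genes, differed little from the others in replicates 2, 4 and 5: by -0.37, -0.02 and 0.17 on the log2 scale for Igf2, by -0.07, 0.05 and 0.30 for H19 and by -0.18, -0.15 and -0.49 for Dlk1. Dlk1 was thus lower in the proliferating cells of all 3 tumors, and Igf2 and H19 had no common direction.

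Of the control classes, choroid plexus-like cells held the most Igf2. It stood at 390, 449 and 318 CPM in control replicates 2 to 4, and at 379 CPM in the 34 such cells of tumor replicate 1. The controls and this tumor thus overlapped in that class, and H19 had no UMI in it in the controls and 2 in the tumor. Dlk1 was at 1 UMI in each control there. Choroid plexus-like cells thus held Igf2 with little or no H19 and Dlk1.

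Igf1, the ligand made by macrophages and some neurons in the adult brain, overlapped between the groups over all cells. The controls held 9.59, 9.11, 11.8 and 10.8 CPM and the tumors 17.1, 13.03, 17.3, 8.66 and 3.23 CPM, with 3 tumors above and 2 below every control. Replicate 4 stood at 16.3 CPM with the mitochondrial limit of 10% and at 17.2 CPM over all deposited barcodes, above every control in both. Fusion-allele cells held 0 to 1.65 CPM of Igf1, below the 7.19 to 14.0 CPM in the free RNA of those 4 libraries. Igf1 was thus not raised in fusion-allele cells. In neural progenitor-like cells of the 5 tumors its median was 3.81 CPM, but the highest tumor held 140 CPM.

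Macrophage-like cells of the tumors held the most Igf1, at 111, 159 and 165 CPM in replicates 2 to 4, or 145 ± 29.6 (SD, n = 3). In microglia-like cells it stood at 13.7, 7.96, 10.5 and 1.604 CPM in the controls and at 5.69, 23.8, 24.1, 73.2 and 11.5 CPM in the tumors. Replicates 2 to 4 lay above the controls there and replicates 1 and 5 within their range. The 4 controls rested on 1 to 6 UMIs each, so their order was not detectable at this depth.

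Igf1r, the signaling receptor, stood at 75.4, 69.3, 81.3 and 74.8 CPM in the controls and at 124, 150, 161, 106 and 93.6 CPM in the tumors. Every tumor lay above every control and the ratio of means was 1.69. Endothelial-like cells were 0.440% to 0.696% of kept control cells and 2.52% to 10.7% of tumor cells, with the largest share in replicate 3, and their part in the difference was not tested. They held the most Igf1r in both groups, at 611 ± 66.2 CPM in the controls (SD, n = 4) and 449 ± 206 in the tumors (SD, n = 5), and the groups overlapped in that class. There were 28 to 31 such cells a control and 129 to 185 a tumor.

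Fusion-allele cells held 197, 123, 113 (112.5) and 108 CPM of Igf1r in replicates 2 to 5, between 0.698 and 1.49 times the free RNA. In microglia-like cells all 5 tumors lay below the 4 controls, at 27.4 to 55.5 CPM against 63.1 to 76.6 CPM. The direction over all cells thus did not hold in the microglia-like class. Counted over all deposited barcodes in place of kept cells, the log2 ratio of tumor to control was 1.21 rather than 0.75.

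Igf2r, the receptor that clears IGF2, stood at 19.2, 21.2, 23.7 and 20.7 CPM in the controls and at 20.3, 25.5, 17.0, 37.8 and 20.3 CPM in the tumors. The groups overlapped, with 2 tumors above and 1 below every control. Mural-like cells, the pericytes and smooth muscle of vessels, held the most, at 176, 76.1, 407 and 105 CPM in tumor replicates 2 to 5, or 191 ± 150 (SD, n = 4). Controls had too few of them (1 to 3 a mouse) to give a level. Ependymal-like cells, given for tumor replicate 2 alone, held 76.8 CPM, and choroid plexus-like cells 66.0 CPM in tumor replicate 1 and 43.3, 55.3 and 28.9 CPM in control replicates 2 to 4.

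**Figure D3:**
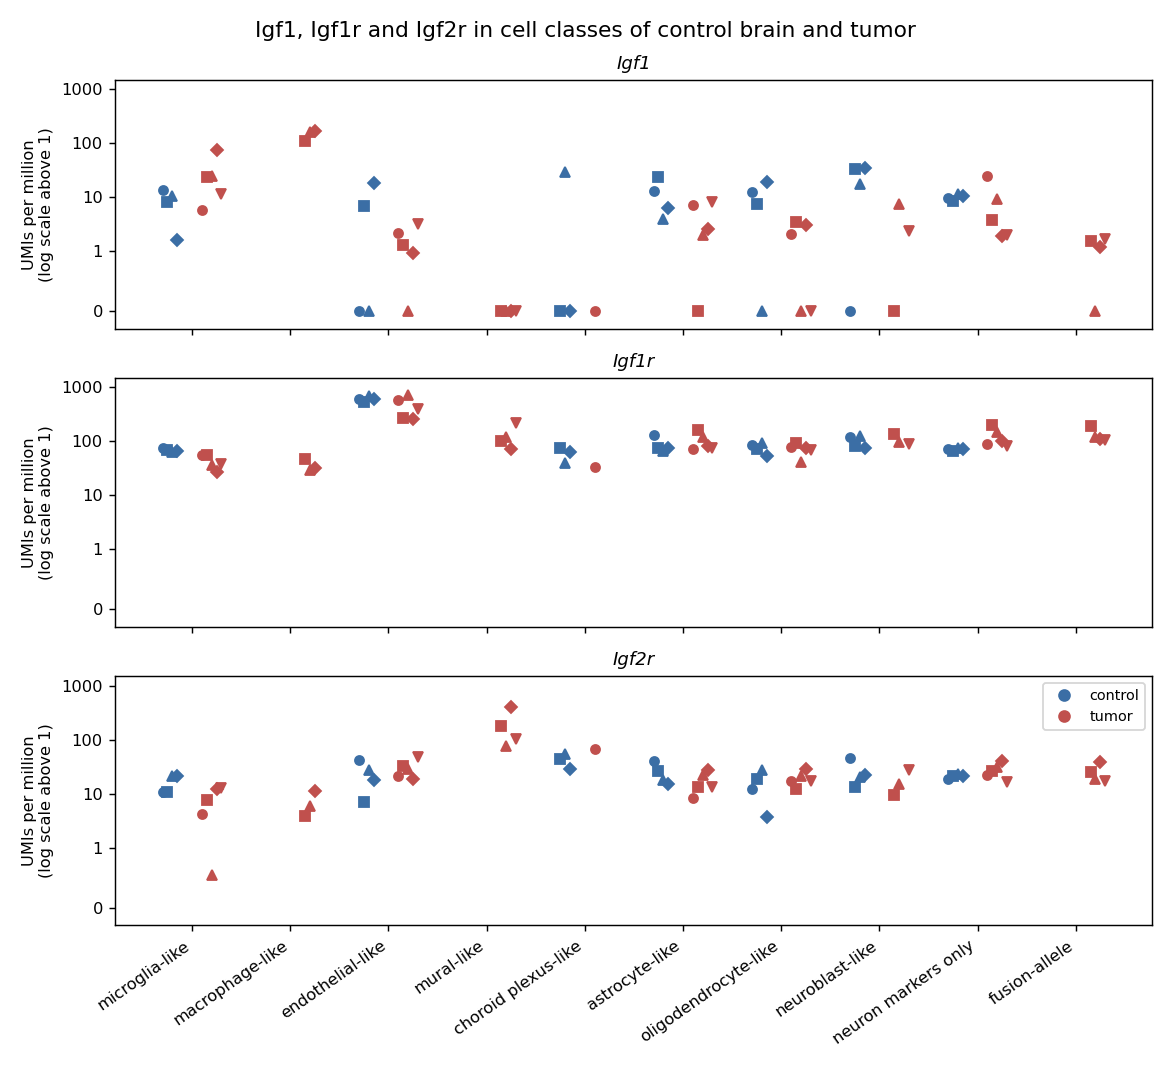
Igf1, Igf1r and Igf2r in CPM (log scale above 1, linear below) in cell classes with at least 20 cells, 1 point a mouse with controls in blue and tumors in red. Igf1 is highest in macrophage-like cells (111 to 165), Igf1r in endothelial-like cells of both groups and Igf2r in mural-like cells of the tumors (76.1 to 407).

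Of the RNA-binding proteins, Igf2bp1 was near the limit of detection, with 2, 1, 3 and 2 UMIs in the controls and 0, 0, 3, 2 and 0 in the tumors. Igf2bp2 stood at 4.58, 3.95, 2.40 and 3.92 CPM in the controls and at 0.847, 0.711, 2.84, 0.372 and 1.12 CPM in the tumors. Replicate 3 overlapped the controls and the other 4 tumors lay below them. The groups did not overlap over all deposited barcodes (3.50 to 4.12 CPM in the controls and 0.576 to 2.87 CPM in the tumors) or with a limit of 10% on mitochondrial UMIs. The tumor values in kept cells rest on 5 to 20 UMIs each. Free RNA held 3.18 to 8.48 CPM of Igf2bp2 in the controls and 0.520 to 5.35 CPM in the tumors. Kept cells stood at 0.540 to 1.01 times the free RNA of their library in the controls and at 0.225 to 1.49 times in the tumors.

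Igf2bp3 also had more RNA in kept cells of the controls, and this depended on which barcodes were counted. Kept cells of the controls held 53.5, 49.6, 56.5 and 54.1 CPM and those of the tumors 20.7, 8.77, 18.5, 14.3 and 14.7 CPM, a ratio of 3.48 between control and tumor. Free RNA held 3.99 to 7.01 CPM in the controls, so their kept cells were 7.71 to 13.4 times above it, while the tumors' kept cells stood 0.943 to 3.62 times the level of their free RNA (5.20 to 15.1 CPM). Over all deposited barcodes the groups overlapped, at 14.1, 12.4, 13.1 and 12.5 CPM in the controls and 12.8, 8.07, 11.4, 14.3 and 15.0 CPM in the tumors, and the log2 ratio was -0.08 instead of -1.80. Cells with neuron markers only made up 85.3% to 88.1% of kept control cells and 3.10% to 40.6% of tumor cells, and neuron markers in the tumors summed to 566 to 2013 CPM. The part of these shares in the difference was not tested.

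**Figure D4:**
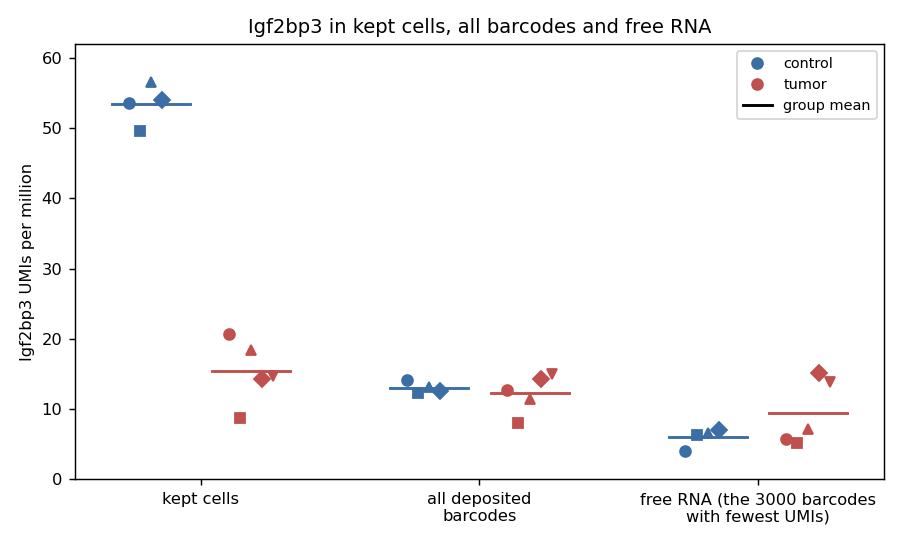
Igf2bp3 in CPM (linear axis from 0) in kept cells, in all deposited barcodes and in the free RNA, 1 point a mouse, controls in blue, tumors in red, with a line at each group mean. The groups are apart in kept cells (49.6 to 56.5 against 8.77 to 20.7) and overlap in all barcodes.

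Within control brain, a contrast other than that between tumor and control, Igf2bp3 differed between cell classes. The genes were chosen with values of these same mice known, so the p-values between classes are not independent of that choice. Cells with neuron markers only held 56.7, 54.8, 62.8 and 58.1 CPM in control replicates 1 to 4, and neuroblast-like cells, young neurons with Dcx and Dlx genes, held 45.6, 68.4, 51.9 and 91.3 CPM. Both classes lay above the mean of the other classes (edgeR, mouse as a block, 22 sums of at least 50 cells over 6 classes, without the 26 neuroblast-like cells of replicate 1): by 1.70 ± 0.16 on the log2 scale (SE, adjusted p = 1.35e-18) and by 1.97 ± 0.28 (adjusted p = 2.93e-09). Among all 9531 genes tested, 58.5% differed in the class with neuron markers only (30.9% higher) and 29.1% in the neuroblast-like class (15.8% higher). The calls held in 7 of 7 and in 3 of 3 alternatives that could be run, and 41.2% to 46.4% of neuroblast-like cells lay near the edge of the gate.

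Microglia-like and erythroid-like cells of the controls had less Igf2bp3. Microglia-like cells held 16.4, 11.9, 12.6 and 6.42 CPM, -1.07 ± 0.40 against the other classes (edgeR, adjusted p = 0.0276), where 34.8% of genes differed and 15.6% were lower. Cells had been stained for the erythroid protein Ter119 and sorted before loading, with no gate given in the labels. In erythroid-like cells the 4 controls had 2, 0, 0 and 0 UMIs, with an adjusted p of 0.0196 from the 3 controls with at least 50 such cells (replicate 3 had 43), where 13.6% of genes differed, 7.24% higher and 6.35% lower. The first call was lost without control replicate 3 and without the filter on low counts, and the second without control replicate 3 (adjusted p up to 0.283 and 0.0893). Free RNA of the controls held 3.99 to 7.01 CPM.

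Of the other members, Igf1 was higher in neuroblast-like cells of the controls, by 1.42 ± 0.42 (edgeR, adjusted p = 0.00550), with 32.6, 17.3 and 34.6 CPM in the 3 controls that had at least 50 such cells and no UMI in the 26 cells of replicate 1. Igf2 was lower in the same class, by -1.20 ± 0.41 (adjusted p = 0.0177), where 13.2% of genes were lower. It stood at 13.03, 10.4 and 12.6 CPM in the same 3 controls, from 3 or 4 UMIs each, and at 45.6 CPM in the cells of replicate 1, from 3 UMIs, so that the mouse outside the fit was higher. Both calls held in 3 of 3 alternatives. Igf2 was also lower in cells with neuron markers only (-0.37 ± 0.16, adjusted p = 0.0443, 4 of 7 alternatives) and so was Igf1r (-0.23 ± 0.09, adjusted p = 0.0259, 0 of 7), among 27.6% of genes. In all, 8 of 30 tests passed, 3 higher and 5 lower, where 13.6% to 58.5% of all genes differed in a class. Nothing is read from that count. Igf2r passed in no class, its smallest adjusted p being 0.271 (edgeR). H19, Dlk1, Igf2bp1 and Igf2bp2 had too few counts for these tests. No tested member passed in astrocyte-like cells, where 10.9% of genes were higher and 6.32% lower (17.3% in all). Nor did one pass in oligodendrocyte-like cells, where 11.0% were higher and 7.59% lower (18.6% in all). In microglia-like cells 19.3% of genes were higher.

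The rest of the pathway was tested between tumor and control from a list of 34 genes, of which 28 had enough counts: 14 were higher in tumors and 3 lower, where 32.3% and 29.4% of all 17599 genes were. The list was drawn up with earlier results of these mice known. Its median log2 fold change was 0.98, against 0.04 over all genes. Of the binding proteins and their like, Igfbpl1, Igfbp7, Igfbp3 and Igfbp2 rose the most, followed by the kinase gene Akt1. Igfbp5 rose by 1.42 ± 0.55 (edgeR, adjusted p = 0.0460) in 7 of 17 alternatives, and Igfbp4 and Igfbp6 missed the threshold at 0.43 ± 0.50 and -0.68 ± 0.99 (adjusted p = 0.474 and 0.568).

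Igfbp7, a secreted protein of the vessel wall that binds IGFs weakly, rose by 5.45 ± 0.56 on the log2 scale (SE, edgeR, adjusted p = 0.000157). It stood at 14.4, 16.4, 21.0 and 14.1 CPM in the controls and at 428, 1024, 685, 618 and 182 CPM in the tumors. Igfbp3, the main carrier of IGFs in blood, rose by 3.94 ± 0.64 (adjusted p = 0.000848), from 2.46 to 4.14 CPM in the controls to 21.2, 106, 34.5, 38.4 and 17.7 CPM in the tumors. The groups were apart for both, with tumor replicate 2 the highest. Vessel markers were higher in the tumors too. The 8 endothelial markers summed to 73.8 to 135 CPM in the controls and 423 to 2685 CPM in the tumors, beside the shares of endothelial-like cells given above. The 8 mural markers summed to 51.8 to 75.8 CPM and 192 to 1164 CPM, and mural-like cells made up 0.0157% to 0.0746% and 0.634% to 2.50% of kept cells. Both marker sums were highest in tumor replicate 3, and replicate 2 held 612 CPM of the endothelial and 433 CPM of the mural markers. Within endothelial-like cells Igfbp7 also rose and Igfbp3 had UMIs in the tumors only, and the part of the cell shares was not tested.

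Igfbpl1, a binding protein-like gene of neural progenitors, rose by 6.85 ± 1.22 (edgeR, adjusted p = 0.00130), from 1.89 to 4.16 CPM to 36.1, 49.5, 181, 101 and 1026 CPM, and replicate 5 decided its mean. Igfbp2, a binding protein of the developing brain and choroid plexus, rose by 3.62 ± 1.06 (adjusted p = 0.0142). It stood at 20.3, 29.6, 43.2 and 27.1 CPM in the controls and at 41.5, 875, 61.2, 347 and 54.3 CPM in the tumors, so replicate 1 overlapped the controls. In fusion-allele cells of replicates 2 to 5 Igfbp2 reached 1443, 294, 405 and 73.7 CPM and Igfbpl1 19.5, 673, 107 and 1404 CPM, each above the free RNA of its library. Igfbp7 there was 556, 66.3, 314 and 13.8 CPM and lay below the free RNA in 3 of the 4.

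Inside the cell, Akt1, the kinase below PI3-kinase, rose by 3.21 ± 0.59 (edgeR, adjusted p = 0.00147). It stood at 30.8 to 33.2 CPM in the controls and at 57.9, 346, 139, 374 and 246 CPM in the tumors, and fusion-allele cells held 526, 431, 446 and 362 CPM. Hmga1, a chromatin protein of growing cells, rose by 2.09 ± 0.39 (adjusted p = 0.00155). Foxo3 and Foxo1, transcription factors that AKT keeps out of the nucleus, rose by 1.05 ± 0.17 and 1.09 ± 0.24 (adjusted p = 0.000930 and 0.00361). Pik3r1, the regulatory subunit of PI3-kinase, rose by 0.99 ± 0.24 (adjusted p = 0.00560) and Stc2, an inhibitor of the protease that frees IGFs, by 1.72 ± 0.44 (adjusted p = 0.00786).

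Foxo1 overlapped between the groups, at 15.4 CPM in tumor replicate 4 against 14.4 to 16.7 CPM in the controls. Over all deposited barcodes the Foxo1 and Pik3r1 calls were lost (adjusted p = 0.0588 and 0.0858, edgeR) and the list had 14 calls, 11 higher and 3 lower. The 3 genes lower in kept cells, named after their values were seen, were Irs4 (-2.19 ± 0.67, adjusted p = 0.0174), Grb10 (-1.51 ± 0.49, adjusted p = 0.0236) and Pappa2 (-1.84 ± 0.70, adjusted p = 0.0432). Irs4 is a docking protein of the receptors, Grb10 an imprinted adaptor that dampens them, and Pappa2 a protease of binding proteins. None of the 3 passed over all barcodes, with adjusted p of 0.0941, 0.0767 and 0.146.

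Genes beside the imprinted members did not all move with them. Of 12 neighbors, 10 were tested, 4 rose and 3 fell, where 32.3% and 29.4% of all genes did. Beside H19, Tnnt3, a troponin of skeletal muscle, had 1, 4, 5 and 5 UMIs in the controls and 25.6, 8.18, 237, 559 and 10.3 CPM in the tumors (log2 9.96 ± 1.82, edgeR, adjusted p = 0.00147). Tnnt3 passed the low-count filter through the tumors alone, and its fold change rests on the 1 to 5 UMIs of each control. Lsp1, a leukocyte protein, rose by 3.45 ± 0.45 (adjusted p = 0.000324), from 4.28 to 5.45 CPM in the controls to 30.2, 26.4, 41.9, 89.1 and 32.5 CPM. In fusion-allele cells of replicates 2 to 5 Tnnt3 stood at 8.80, 1610, 728 and 11.6 CPM, high in replicates 3 and 4 only, and Lsp1 at 30.6, 175, 109 and 41.3 CPM. The 8 microglia markers summed to 522 to 629 CPM in the controls. In the tumors the sum ran from 2247 CPM in replicate 4, the highest in Lsp1, to 10694 CPM in replicate 3. The part of microglia-like cells in the rise of Lsp1 was not tested. Mrpl23, a mitochondrial ribosomal protein between Tnnt3 and H19, rose by 0.72 ± 0.25 (adjusted p = 0.0278), a call held in 9 of 17 alternatives and at -0.12 over all barcodes.

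Beside Dlk1, the noncoding RNAs of the same cluster went the other way in kept cells. Meg3 stood at 17982, 16062, 18011 and 17304 CPM in the controls and at 6451, 975, 2118, 176 and 1245 CPM in the tumors, and fell by 2.89 ± 0.75 on the log2 scale (edgeR, adjusted p = 0.00849). Rian and Mirg, downstream of Meg3, fell by 1.79 ± 0.66 and 1.89 ± 0.65 (adjusted p = 0.0378 and 0.0293), each a call held in 9 of 17 alternatives and lost without any 1 control or without tumor replicate 2, 3 or 5. Over all deposited barcodes none of the 3 passed, at -1.01, -0.31 and -0.07 (adjusted p = 0.172, 0.645 and 0.926). Meg3 in the free RNA was 1021 to 1312 CPM in the controls and 303 to 3570 CPM in the tumors, so the gap lay in the kept cells, as for Igf2bp3. The share of cells with neuron markers only, 85.3% to 88.1% in the controls and 3.10% to 40.6% in the tumors, was lower in the tumors too, and its part was not tested. Begain, a synaptic protein upstream of Dlk1, rose by 1.18 ± 0.42 (adjusted p = 0.0347) and kept the call in 8 of 17 alternatives.

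**Figure D5:**
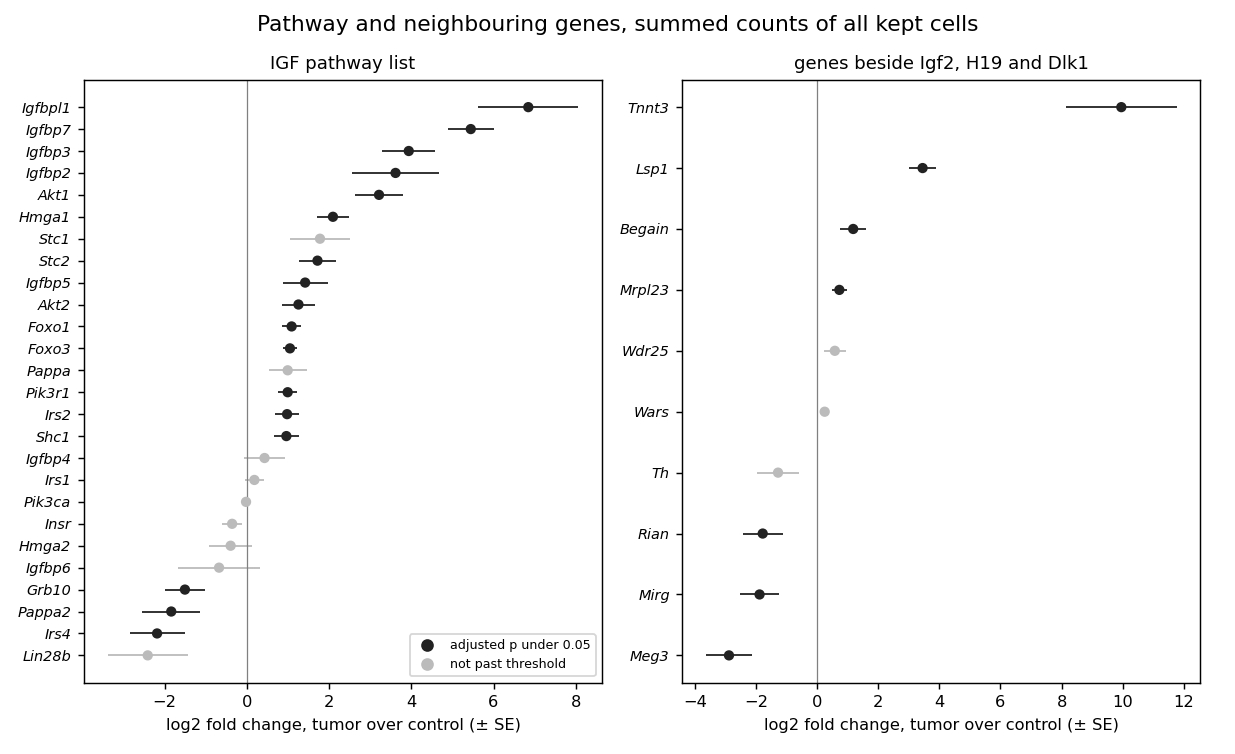
Log2 fold change of tumor over control (horizontal axis, with SE bars, edgeR on UMI counts summed per mouse over kept cells) for the tested pathway genes that are reported here (left) and the tested genes beside Igf2, H19 and Dlk1 (right), black where the adjusted p is under 0.05. Igfbpl1, Igfbp7, Igfbp3, Igfbp2 and Akt1 lead the list, and Tnnt3 and Meg3 are the ends of the neighbors.

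Within 2 classes found in both groups the pathway list was tested again. In microglia-like cells (16 genes tested) 3 rose and 3 fell, where 24.7% and 22.6% of 9207 genes did (47.3% in all), and the list's median was -0.0014 against 0.09 over all genes. Akt1 rose by 1.70 ± 0.28 (edgeR, adjusted p = 0.000517), from 43.8, 58.4, 52.6 and 57.7 CPM to 86.8, 116, 98.2, 184 and 125 CPM. Tumor free RNA held 45.6 to 289 CPM of Akt1. Shc1, an adaptor of the receptors, rose by 1.35 ± 0.34 (adjusted p = 0.00620), and Igfbp7 by 3.22 ± 0.92 (adjusted p = 0.0129), its tumor levels of 10.4 to 137 CPM all below the free RNA. The Shc1 call was lost without TMM scaling. Igfbp7 had enough counts for a test in 10 of 14 alternatives and passed in those. Whether it was tested depended on the tumors in which it is high, so this adds no support. Without tumor replicate 2, 3, 4 or 5 the list had 2 higher genes in place of 3. Among those that fell, Igfbp6 fell by 1.45 ± 0.38 and Pik3ca by 0.57 ± 0.19 (adjusted p = 0.00779 and 0.0299), the latter in 8 of 14 alternatives. The part of free RNA in these differences was not tested.

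In endothelial-like cells (15 genes tested) 4 rose and 2 fell, where 11.6% and 12.1% of 7155 genes did (23.7% in all), with a median of 0.25 against 0.02 over all genes. Igfbp3 had no UMI in the endothelial-like cells of any control and 88, 464, 179, 101 and 110 UMIs in the tumors, or 190, 601, 215, 98.4 and 173 CPM (edgeR, adjusted p = 0.00231). It passed the low-count filter through the tumors alone, so the p-value adds little to these counts. Igfbp7 rose by 2.63 ± 0.30 (adjusted p = 0.000578), from 918, 785, 919 and 720 CPM to 4644, 6539, 3781, 5888 and 3247 CPM. Both levels were far above the tumors' free RNA (14.8 to 64.9 CPM and 50.8 to 386 CPM). Igfbp4 rose by 3.44 ± 0.87 (adjusted p = 0.0136), from 1, 3, 0 and 1 UMIs in the controls, and Akt1 by 1.22 ± 0.28 (adjusted p = 0.00860). Pik3ca, the catalytic subunit of PI3-kinase, fell by 1.13 ± 0.26 (adjusted p = 0.00945), a call lost without the filter on low counts, where the list had 6 calls, all higher. With DESeq2, and without any 1 control, 1 gene of the list was lower in place of 2. The Igfbp4 call was lost without control replicate 4, and in 3 of 14 alternatives the gene had too few counts for a test. Like Igfbp3, Igfbp4 could pass the low-count filter only through the tumors. Control endothelial-like cells carried a median of 8.5 UMIs a cell of 8 mural markers and those of the tumors 0, and the part of mural RNA in these differences was not tested. The controls had 28 to 31 endothelial-like cells each, so the 4 sums are shallow.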

How the data were processed

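Single-cell suspensions of the 5 tumors and 4 control brains were sequenced with a 10x Genomics 5′ kit, and the authors deposited 1 matrix a mouse of raw UMI counts of 32285 genes and 4 added sequences on mm10. The matrix headers name Cell Ranger 6.1.2 and the submitters' processing notes Cell Ranger 7 and Scanpy 1.8.2. Control replicate 4 has 80887 barcodes and 80865 names.

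The 10000 barcodes with most UMIs were considered, those outside 200 to 6000 genes were dropped, and in each library a 2-component Gaussian mixture on mitochondrial share and gene number removed the component of higher mitochondrial share (mean share 3.68% to 22.4%, so that some libraries lost barcodes with a lower share than others kept). Doublets were removed with Scrublet in Scanpy 1.11.5, at a rate set in proportion to the barcodes (1.38% to 5.38% a library). A cell entered a class with UMIs of at least 3 of its markers, a score of at least 3 above the free RNA and a margin of 1 to the next class. Cells with neuron markers only needed no such score. The markers were listed beforehand, and the scoring rule was set after the data were seen. Levels are given for classes of at least 20 cells. Counts were summed per mouse and tested with edgeR 4.0.16 (quasi-likelihood, TMM, filterByExpr, R 4.3.3) over all genes with Benjamini-Hochberg adjustment at 0.05, and a mouse was the replicate. Between classes of control brain the mouse was a block. The endothelial-like test took mice with at least 20 cells, since no control had 50.

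The members and lists were chosen with earlier results of these data known. Named were all 9 members, of the pathway list the 10 smallest p (all past the threshold within a class, up to 6), and every neighbor past the threshold. A few genes of the pathway list enter its counts and medians but are not reported here by name. In counts simulated for the tumor and control mice (17392 genes, 200 changed by 1.5 on the log2 scale), edgeR recovered 35% with 1.41% false calls and DESeq2 1.42.0 recovered 66.5% with 27.3%. A far larger share of genes (61.6%) passed between the real groups, so these rates describe the simulated setting only. Gene positions came from GENCODE on GRCm38 and sequences from RefSeq on GRCm38.p6. Alternatives were DESeq2, no TMM, no low-count filter, the replicate number as a block, other cell filters (10% mitochondrial, 5000 barcodes, doublets kept, all barcodes), a stricter gate of 4 markers and leaving out each mouse. No per-sample column was left unused.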

Additional observations from a re-analysis of the deposited data

Results flagged for a closer look

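In 6 of 56 groups of mice looked at, 1 mouse stood farther from the others than Dixon's 95% limit, and chance alone flags about 1 group in 20. All 6 were tumors. Tumor replicate 2 held 106 CPM of Igfbp3, replicate 5 held 1026 CPM of Igfbpl1, and replicate 4 held 5.58 CPM of Stc2 and 89.1 CPM of Lsp1, each the highest of its group over all kept cells. Tumor replicate 1 held the most Irs4 (2.71 CPM) and Pappa2 (1.52 CPM), the latter from 9 UMIs and within the controls' 1.15 to 1.53 CPM. Igf2bp1 was not looked at in this way. None of the other members had such a mouse, although their tumors spread over factors of up to 51.1 (H19).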

How the results depend on the processing

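Of 186 values recomputed under other settings, 173 stayed within the limits set (1.5 times for a count, the spread between mice for a ratio), 11 counts fell by over 1.5 times and 2 ratios moved by more than the spread between mice. Of the ratios whose groups did not overlap, 0 changed sign. Without 1 mouse, 3 to 7 of the neighbors passed (7 with all mice): 3 without control replicate 1 or 3 or tumor replicate 2, and 4 without control replicate 2 or 4 or tumor replicate 5. Calls of members between control classes numbered 8, and 5 without the low-count filter, 3 with the stricter gate (fewer cells, 16 tests) and 2 to 6 without 1 mouse: 3, 2 and 3 without control replicates 2, 3 and 4. Over all deposited barcodes, an alternative chosen after seeing the data for the lists, Igf1r moved to 1.21 and Igf2bp3 to -0.08 (log2 ratio). Igf2 and Dlk1 stood at 4.87 and 6.03 there (5.797 and 6.74 over kept cells), shifts within the spread between mice but over 1.5 times on the linear scale. Without tumor replicate 4, Dlk1 stood at 5.98 and Igf2r, whose groups overlapped, changed sign to -0.03 (0.19 with all mice), and without tumor replicate 3 Igf2bp2 at -2.28 (-1.66). Pathway calls numbered 14 to 22 over all cells (12 to 20 without 1 mouse), 6 to 7 (5 to 8) in microglia-like and 5 to 6 (4 to 6) in endothelial-like cells. With the replicate number as a block, Stc2 and Igfbp2 missed the threshold (adjusted p = 0.0517 and 0.0621, edgeR). Same-numbered mice did not deviate together (r of 0.0042 to 0.048), so the numbers were not taken as pairs. Between control classes the fit without the block gave 7 calls. The median log2 fold change of all genes was 0.04, -0.19 without TMM, -0.11 with DESeq2 and -0.15 without the filter. The share of calls that were higher was 52.3%, and 45.5% without TMM. The smaller numbers of kept cells in most tumors (1721 to 5121, against 4023 to 6365 in the controls) and the shallow endothelial sums of the controls limit what the depth can show.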

Other observations

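Across the kept cells of the 5 tumors, the genes whose log normalized counts were most like those of Igf2 were Ckb (mean Pearson r 0.58, 0.33 to 0.76 between tumors), Mdk (0.53), Dlk1 (0.53), Mgst1, H19, Fgf3, Nnat, Ptprs, Mfap2 and Thumpd3, among 10186 genes compared. Ckb is the brain creatine kinase, Mdk the heparin-binding growth factor midkine, Fgf3 a fibroblast growth factor of the embryo and Nnat an imprinted membrane protein of developing brain. For Dlk1 the list was Igf2, Ckb (0.52), Mgst1 (0.51), Mdk, Nnat, Clu, Fgf3, Ptprs, Pmp22 and Thumpd3. For H19 it was Igf2 (0.45), Mdk (0.36), Ckb, Dlk1, Cdkn1c, Mfap2, Fgf3, Aif1l, Ccnd3 and Akt1. Cdkn1c, an inhibitor of the cell cycle, is itself imprinted. The cells of a tumor share a library and differ in depth, so these values describe the cells and carry no test.

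Igf2os, the antisense transcript of Igf2, had 0, 0, 1 and 3 UMIs in the controls and 10, 380, 15, 785 and 248 UMIs in the tumors, at 1.69, 22.5, 2.13, 20.8 and 15.4 CPM. It was looked up because it overlaps Igf2, and reads of the 2 strands may not be told apart. Lin28b, an RNA-binding protein active in embryos, was picked after its values were seen: kept cells of the controls held 27.3, 20.5, 23.9 and 20.0 CPM, with 2.59 to 6.49 CPM in their free RNA, and the tumors 16.3, 1.54, 1.99, 0.0266 and 1.87 CPM. The groups did not overlap, but it missed the threshold (edgeR, adjusted p = 0.0537, 0.00183 to 0.328 over alternatives).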
